A study of Homo sapiens with 8 samples.

Results

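The peaks described here are those of MYC, of its neighbors PVT1 and POU5F1B, and of the cell-cycle genes CCND1 and CDKN1A, in ChIP-seq of FLAG-tagged dominant-negative TCF1E from DLD-1 colon cancer cells. A peak was taken as a member's when HOMER had named that gene as the one with the nearest transcription start site (TSS), so the choice used gene names and no score. By this rule 16 of 23433 listed peaks belonged to the members, and 4 of the 5 genes had at least 1 peak. POU5F1B had 9 peaks, MYC 3, CCND1 2 and CDKN1A 2, whereas PVT1 was the nearest gene of 0 peaks in all 6 lists.

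Each of the 2 proteins was expressed from a doxycycline-inducible construct in its own clonal DLD-1 cell line. dnTCF1EWT carries an intact C-clamp, and dnTCF1Emut carries a substitution of several amino acids that leaves the C-clamp unable to bind DNA. Both are dominant negative because they cannot recruit β-catenin. Cells of both lines were held in 10 µg/mL blasticidin and 300 µg/mL zeocin for 24 h, and were then left untreated (0 h) or given 1 µg/mL doxycycline for 2 or 9 h before immunoprecipitation with anti-FLAG beads. Each condition is 1 list of peaks called on pooled duplicates, so no spread between replicates can be given, no test between conditions was possible, and all values below are descriptions of single lists. Because each protein has its own clone and libraries, protein, clone and library cannot be told apart.

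The dnTCF1EWT lists held 1907, 5585 and 12996 peaks at 0, 2 and 9 h, and the dnTCF1Emut lists 708, 1883 and 354. The peak score is the MACS score, which rises as the P-value of a peak falls and also rises with sequencing depth, which is unknown here. A rank within its own list is therefore given beside each score, with rank 1 as the highest score. Scores started between 50.01 and 50.21 in every list, so a region that is not listed had no peak above that minimum and may still have been bound.

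TCF proteins bring Wnt signalling to DNA. Their HMG box binds the Wnt response element (WRE), written here as CTTTG followed by A or T, A or T, and C or G, and the C-clamp of the E-tail isoforms contacts GC-rich Helper sites, A or G followed by CCGCC, or a short form, A or G followed by CCG. MYC, a transcription factor that drives growth and entry into the cell cycle, and CCND1, which encodes cyclin D1, are textbook Wnt targets in the intestine, and CDKN1A encodes p21, an inhibitor of cyclin-dependent kinases that MYC holds down. MYC lies in a wide stretch of chromosome 8 with few coding genes. PVT1, a long noncoding RNA gene, lies on its downstream side, and POU5F1B, a retrogene copy of the pluripotency factor gene POU5F1, lies on its upstream side amid distal enhancers that contact MYC in colon cancer cells.

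Of the 16 member peaks, 12 lay in the MYC locus, which holds MYC, PVT1 and POU5F1B. Whatever the nearest gene, the 6 lists together held 27 peaks within 1 Mb of MYC, 26 of CCND1 and 24 of CDKN1A. Single lists differed more, with 10, 0 and 1 dnTCF1Emut peaks at 2 h, and 6, 14 and 18 dnTCF1EWT peaks at 9 h. All 8 member peaks with a score above 67, the threshold the study used for genes, lay around MYC or POU5F1B, with scores of 79.28 to 433.69, and all 4 peaks of CCND1 and CDKN1A scored 60.48 or less. The 16 peaks fell into 11 regions, of which 3 were listed in 2 or more lists, and these 3 were all in the MYC locus. Counting every listed peak within 1 Mb, 9 of the 65 regions in the 3 windows were in 2 or more lists. These were 6 of 18 around MYC, 2 of 24 around CCND1 and 1 of 23 around CDKN1A. Of the 6 around MYC, 1 at -532 kb was shared only by dnTCF1Emut at 0 and 2 h (scores 64.08 and 65.09), so it was present without induction. The share over all regions of the series was not worked out. The map of distances from the TSS shows the 3 member regions at +7 kb, -333 kb and -335 kb from the MYC TSS. No member peak lay within 2 kb of its TSS, with distances from 6996 to 200306 bp, and over whole lists only 2.26 to 5.96% of peaks did. Of the 16 peaks, 15 were annotated as intergenic, beside 50.7 to 66.4% of the peaks of each list.

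**Figure D1:**
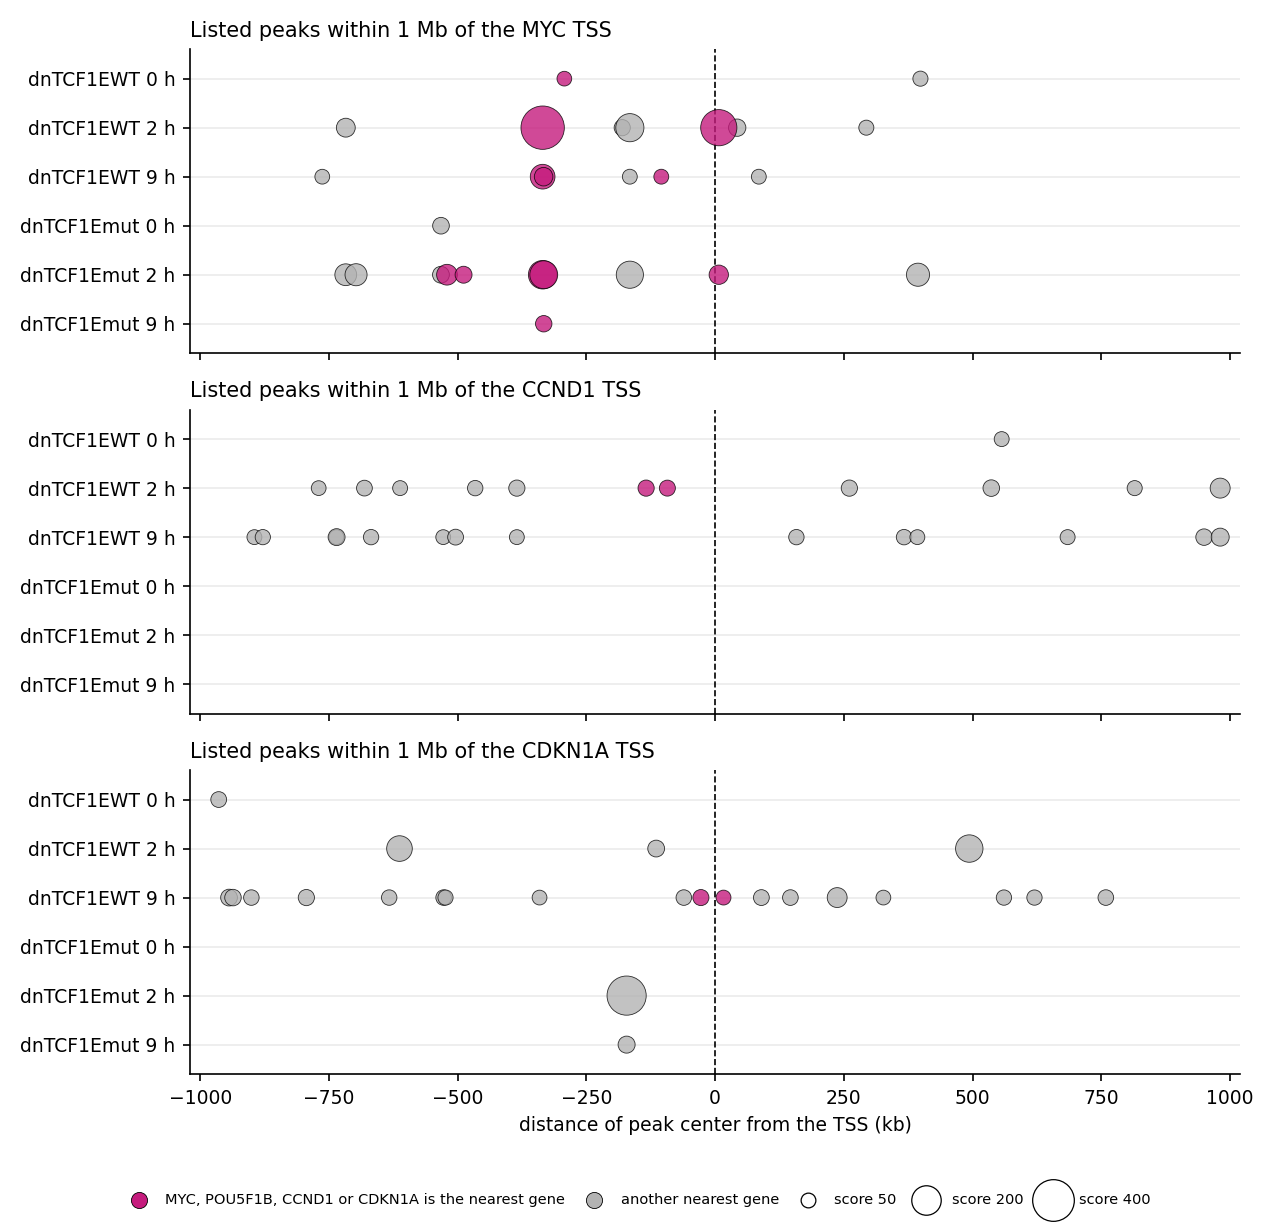
Listed peaks within 1 Mb of the MYC, CCND1 and CDKN1A TSSs in each of the 6 lists, by the distance of the peak center from the TSS in kb. The area of a circle is proportional to the peak score, and colored circles are peaks whose nearest gene is a member. The large colored circles sit at +7 and near -335 kb in the MYC window, and the dnTCF1Emut rows of the CCND1 window are empty.

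The peak closest to a member's TSS lay just past the 3′ end of MYC. At 2 h of dnTCF1EWT it covered chr8:128755104-128755571 in hg19, 7022 bp downstream of the TSS, with a score of 301.89 and rank 214 of 5585 (top 3.83%). At 2 h of dnTCF1Emut it covered chr8:128755101-128755521, 6996 bp downstream, with a score of 86.06 and rank 856 of 1883 (top 45.5%). Both annotations were intergenic and outside repeats. The 2 peaks shared 418 bp, their centers were 26.5 bp apart, and each held 1 WRE, 1 short Helper site and 1 Helper site. These were the only member peaks with a full Helper site, which 7.23% of all dnTCF1EWT 2 h peaks and 4.35% of all dnTCF1Emut 2 h peaks held.

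The MYC 3′ region was absent from both untreated lists and from both 9 h lists. Of the 250 highest-ranked dnTCF1EWT peaks at 2 h, 76% were overlapped by a dnTCF1EWT 9 h peak, against 14.9% of the whole list, and the MYC peak at rank 214 was not. For dnTCF1Emut the share was 12.4% of all 2 h peaks, and 19.8% of the 1000 highest-ranked, so most dnTCF1Emut 2 h peaks were, like that of MYC, not listed again at 9 h. The MYC peak of the dnTCF1EWT 9 h list lay elsewhere, at chr8:128643621-128643778, 104616 bp upstream, in an AluSp repeat. It had a score of 51.1, ranked 10712 of 12996 and held no WRE and no Helper site of either form.

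The highest-scoring member region lay beside POU5F1B, at -335 kb from the MYC TSS. It scored 433.69 with dnTCF1EWT at 2 h (chr8:128413109-128413550, rank 121 of 5585), 140.73 with dnTCF1EWT at 9 h (chr8:128413124-128413457, rank 280 of 12996) and 187.87 with dnTCF1Emut at 2 h (chr8:128413069-128413666, rank 205 of 1883). It was not listed at 0 h in either line, or at 9 h with dnTCF1Emut. The 3 peaks were centered between -14490 and -14567 bp from the POU5F1B TSS, and each held 1 WRE, 1 short Helper site and no full Helper site. From 2 to 9 h of dnTCF1EWT its score was lower and its rank went from 121 to 280. As shares of lists of unequal length, these ranks were the top 2.17% and the top 2.15%. Over the 833 dnTCF1EWT 2 h peaks overlapped by a 9 h peak, the median log2 ratio of the 2 h over the 9 h score was 0.33 (quartiles -0.15 and 1.26), and that of this region was 1.62. A neighboring region at -165.7 kb from the MYC TSS (nearest gene LOC727677, scores 182.55 and 51.1) had a ratio of 1.84.

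A second POU5F1B region, at -333 kb from the MYC TSS, showed another order of lists. It was absent with dnTCF1EWT at 2 h and was listed with dnTCF1EWT at 9 h (chr8:128414968-128415370, score 79.28, rank 1233 of 12996), dnTCF1Emut at 2 h (chr8:128415153-128415749, score 178.83, rank 226 of 1883) and dnTCF1Emut at 9 h (chr8:128415205-128415603, score 62.17, rank 196 of 354). Of the 250 highest-ranked dnTCF1Emut 2 h peaks, 56.4% were overlapped by a dnTCF1EWT 2 h peak, and this one was not. It was the only member peak in the dnTCF1Emut 9 h list. The dnTCF1EWT peak was offset from the other 2, with its center 282 bp from that of the dnTCF1Emut 2 h peak, and they shared 218 bp. The dnTCF1EWT 9 h peak held no WRE and 3 short Helper sites, the dnTCF1Emut 2 h peak held 1 WRE and 2 short Helper sites, and the dnTCF1Emut 9 h peak held 1 of each.

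**Figure D2:**
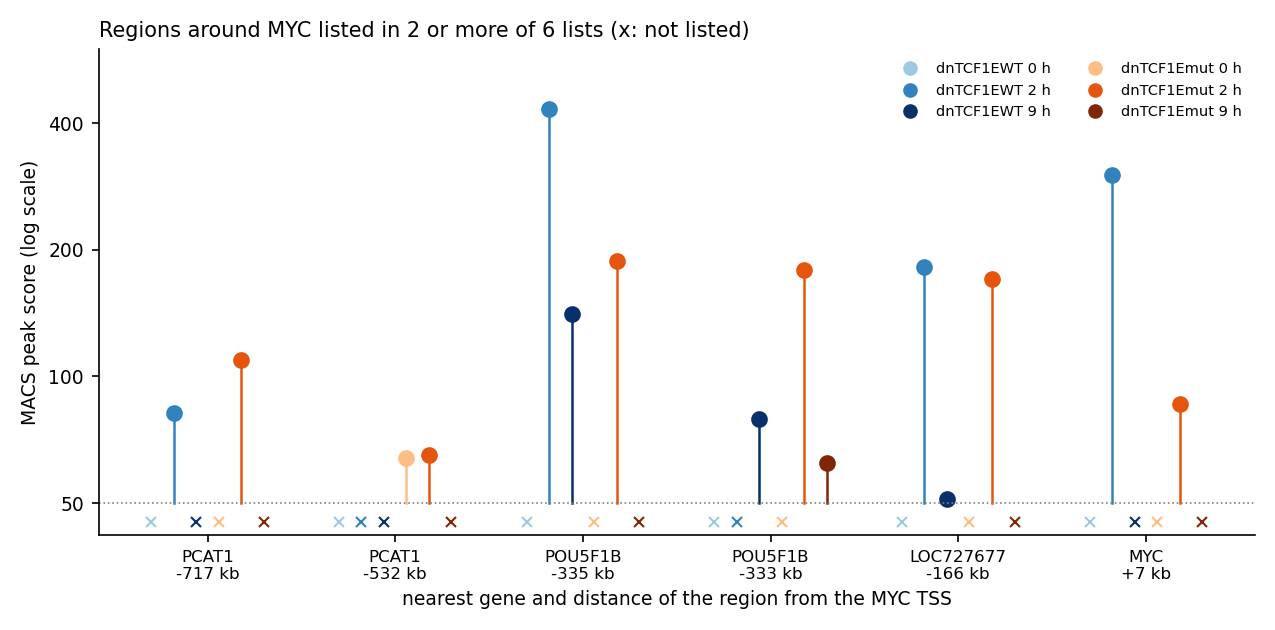
MACS peak score on a log axis for the 6 regions within 1 Mb of the MYC TSS that were listed in 2 or more lists, named by the nearest gene and the distance in kb. Each color is 1 list, and a cross marks a list without a peak there. The -335 kb and +7 kb regions reach 433.69 and 301.89 with dnTCF1EWT at 2 h, and the -333 kb region has no such point.

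The other POU5F1B peaks appeared in 1 list each. With dnTCF1Emut at 2 h, peaks 200306 and 168122 bp upstream of POU5F1B scored 99.22 (rank 684) and 66.16 (rank 1246), the second in an L2a repeat with 2 WREs. The untreated dnTCF1EWT cells had a peak 27597 bp downstream with a score of 50.01, ranked 1906 of 1907, at a transcription end site, with 3 short Helper sites and no WRE. This was the only member peak of an untreated list, and no induced list held it.

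PVT1 itself was the nearest gene of no peak, but its transcript spans microRNA genes that HOMER names in its place. In RefSeq (GRCh38.p14), MIR1204, MIR1205, MIR1206 and MIR1207 lie inside PVT1, and MIR1208 lies next to it. Peaks named for these genes were few. dnTCF1EWT had a peak near MIR1204 at 2 h (score 69.3) and another at 9 h (50.94), and 1 near MIR1207 at 2 h (52.14). Only the MIR1207 peak was annotated in hg19 to an intron of the PVT1 transcript. The 9 h peak near MIR1204 was annotated as intergenic. It lay 24884 bp past the MIR1204 start, between MIR1204 and MIR1207, and so within PVT1 as RefSeq places these genes. All 3 peaks were in Alu repeats and held no WRE. Near MIR1208, dnTCF1Emut at 2 h had a peak with a score of 123.09 and 1 WRE, at +394 kb from the MYC TSS, and untreated dnTCF1EWT cells had 1 with a score of 52.66. No region named for these microRNA genes was listed in 2 lists.

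The score ratio between proteins at 2 h can be given for the regions that both lists held. Over the 527 dnTCF1EWT 2 h peaks overlapped by a dnTCF1Emut peak, 9.44% of the list, the median log2 ratio of dnTCF1EWT over dnTCF1Emut was 0.45 (quartiles -0.29 and 1.19), and 63.6% of ratios were above 0. The MYC 3′ region had a log2 ratio of 1.81, and 86.7% of the shared peaks had a ratio as low or lower. The -335 kb region had 1.21 (76.3%). Regions of the same locus that belong to no member went lower, with 0.10 at -165.7 kb (nearest gene LOC727677, scores 182.55 and 170.13) and -0.41 at -717 kb (nearest gene PCAT1, scores 82.05 and 109.34). Both member regions were above the median, and both of the other regions were below it. Of the dnTCF1Emut 2 h member peaks, 2 of 5 were overlapped by a dnTCF1EWT 2 h peak, beside 27.9% of all peaks in that list. Of the dnTCF1EWT 2 h member peaks, 2 of 4 were overlapped by a dnTCF1Emut 2 h peak, and they ranked 121 and 214. Among the 250 highest-ranked dnTCF1EWT 2 h peaks, 52.4% were overlapped by a dnTCF1Emut 2 h peak.

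**Figure D3:**
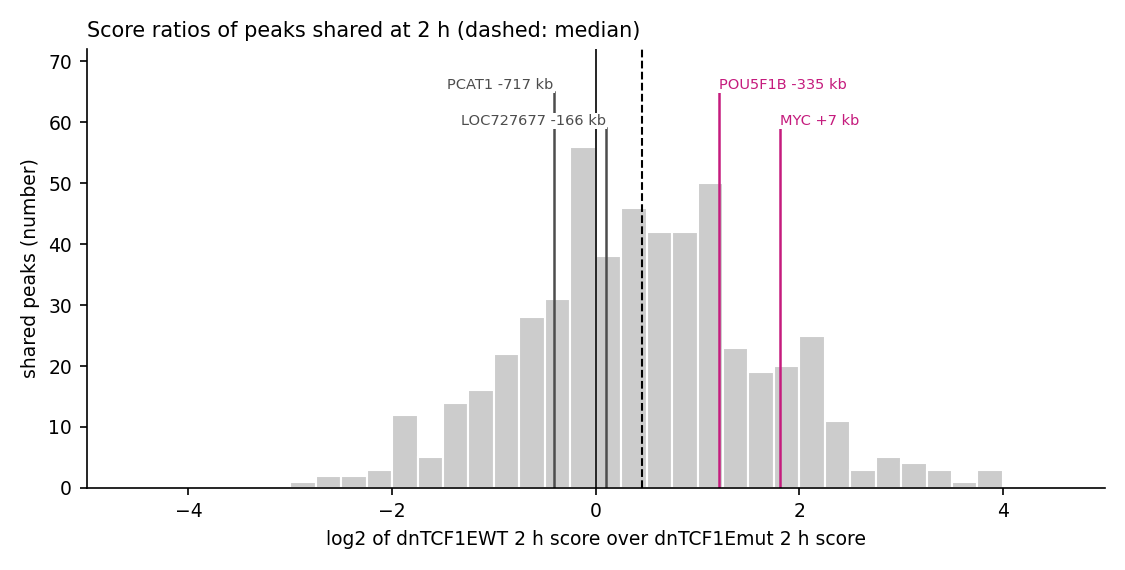
Histogram of the log2 ratio of the dnTCF1EWT 2 h score over the dnTCF1Emut 2 h score for the 527 shared peaks, with lines at the shared regions within 1 Mb of the MYC TSS. The dashed line is the median of 0.45, and the colored lines at 1.21 and 1.81 are the POU5F1B and MYC regions.

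Between 2 and 9 h, 1 of the 4 dnTCF1EWT 2 h member peaks was listed again (14.9% of that list) and 1 of the 5 dnTCF1Emut 2 h member peaks was (12.4%). Of the 5 dnTCF1EWT 9 h member peaks, 1 was overlapped by a dnTCF1EWT 2 h peak, beside 6.47% of that list and 39% of its 1000 highest-ranked peaks. The same 5 peaks were overlapped in 2 cases by a dnTCF1Emut 2 h peak (1.97% and 14.8%) and in 1 case by a dnTCF1Emut 9 h peak (0.685% and 6.4%). The overlapped peaks ranked 280 and 1233 of 12996, and overlap was more frequent among high-ranked peaks of the whole list. From the other side, 2 of the 5 dnTCF1Emut 2 h member peaks were overlapped by a dnTCF1EWT 9 h peak (13.6% of that list). All of these overlaps came from the -335 and -333 kb regions.

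**Figure D4:**
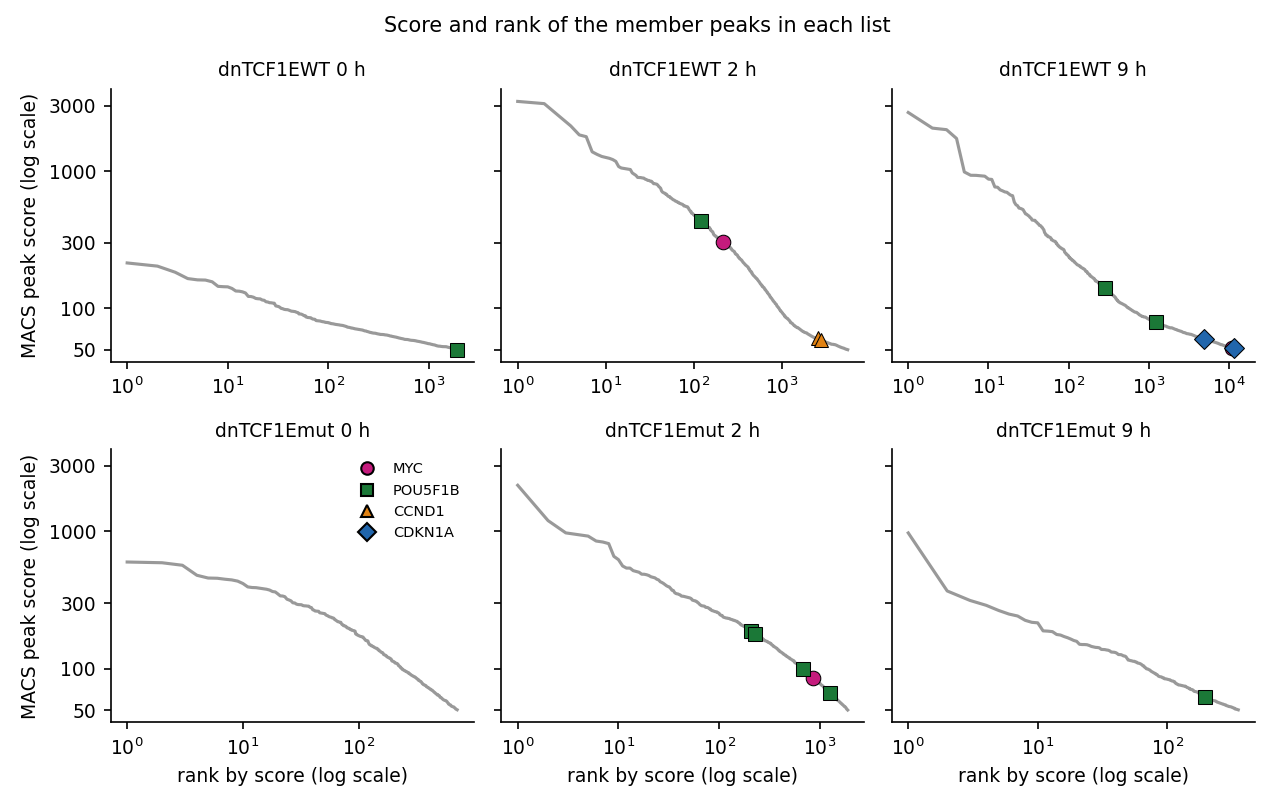
MACS peak score against rank in each list, both on log axes, with the gray line for all peaks and symbols for the member peaks. With dnTCF1EWT at 2 h, POU5F1B and MYC stand at ranks 121 and 214 and CCND1 at 2543 and 2774 of 5585, and with dnTCF1Emut at 2 h MYC stands at rank 856 of 1883.

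CCND1, the cyclin that pairs with CDK4 and CDK6 to start G1 progression, had 2 peaks, both with dnTCF1EWT at 2 h. In hg19 they lay at chr11:69321694-69321894, 134079 bp upstream of the TSS in an AluSx1 repeat, and at chr11:69363015-69363119, 92806 bp upstream in an AluJr repeat. Their scores were 60.48 and 59.05, which gave ranks 2543 and 2774 of 5585, close to the list's median score of 59.02. Neither held a WRE or a full Helper site, and the first held 1 short Helper site. Alu elements held 48.5% of all peaks in that list, 62.2% of those with a score of 67 or less and 3.2% of the 1000 highest-ranked. At 9 h the peak nearest to CCND1 was 158 kb downstream, with a score of 54.47. The dnTCF1Emut lists had no peak within 1 Mb of the CCND1 TSS at any time, and the nearest dnTCF1Emut 2 h peak lay at -3267 kb. An empty window was the more common case in the dnTCF1Emut lists at 0 and 9 h, but not at 2 h. Of 5170 TSSs that could be placed from the lists, 36.8% had 1 or more dnTCF1Emut peaks within 1 Mb at 0 h, 70.2% at 2 h and 22.8% at 9 h.

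CDKN1A had 2 peaks, both with dnTCF1EWT at 9 h, and none at 2 h. One lay at chr6:36618721-36618887 (hg19), 25433 bp upstream of the TSS in an LTR81A repeat, with a score of 59.67, rank 4836 of 12996, 1 WRE and 1 short Helper site. The other lay at chr6:36662625-36662830, 16240 bp downstream in an AluJb repeat, with a score of 51.05, rank 11468 and 1 short Helper site. The dnTCF1Emut lists had 1 region within 1 Mb of CDKN1A, in an intron of STK38 at -172 kb, with scores of 353.54 at 2 h and 66.87 at 9 h and no WRE or Helper site. No list held a peak at the CDKN1A promoter. Its RefSeq sequence, the only one matched among the members' promoters, is shown. It runs from 250 bases before to 50 after the start (GRCh38.p14, chr6:36678464-36678763, plus strand), and capitals mark matches to the full Helper site on either strand.
CDKN1A promoter: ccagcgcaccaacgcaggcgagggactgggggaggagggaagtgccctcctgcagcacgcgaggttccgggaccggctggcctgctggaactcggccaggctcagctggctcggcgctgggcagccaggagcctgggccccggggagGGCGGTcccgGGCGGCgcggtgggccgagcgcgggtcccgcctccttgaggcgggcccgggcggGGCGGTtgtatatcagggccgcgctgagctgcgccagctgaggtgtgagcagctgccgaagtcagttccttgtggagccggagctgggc
The 300 bases held 3 full Helper sites, 12 short Helper sites (3 of them inside the full sites) and no WRE. Of 35116 RefSeq promoters of the same length, 41.6% held a full Helper site, 78.3% a short one (median 4 matches) and 6.62% a WRE.

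WREs were in 6 of the 8 member peaks with a score above 67 and in 3 of the 8 at or below it, and Alu repeats were in 0 and 4. The 8 higher peaks were only 4 regions, and whole lists showed the same split. Of all peaks above 67, 37% held a WRE with dnTCF1EWT at 2 h, 16.8% at 9 h and 39.4% with dnTCF1Emut at 2 h, against 6.45%, 3.93% and 29.5% of the others. In the dnTCF1EWT 2 h list 2 of 4 member peaks held a WRE, beside 16.3% of all peaks and 50.6% of the 1000 highest-ranked. In the dnTCF1EWT 9 h list 2 of 5 did, beside 6.56%, and with dnTCF1Emut at 2 h 4 of 5 did, beside 36%. Short Helper sites, which are short enough to occur often, were in 3 of 4 (54.1% of the list), 4 of 5 (55.4%) and 5 of 5 (38.9%). Per kb of peak they were sparser in the dnTCF1EWT member peaks than in the lists, by a difference of -2.31 matches at 2 h and -0.75 at 9 h. Full Helper sites were in 1 of 4, 0 of 5 (4.83% of the list) and 1 of 5. Alu elements held 2 of the 5 dnTCF1EWT 9 h member peaks, beside 76% of that list. Peak length differed between the proteins, with list medians of 187 bp for dnTCF1EWT and 452 bp for dnTCF1Emut at 2 h, and a longer peak has more room for matches.

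The number of peaks in a wide window differed between the loci. Within 1 Mb of the MYC TSS there were 7 dnTCF1EWT peaks at 2 h and 6 at 9 h, and 10 dnTCF1Emut peaks at 2 h and 1 at 9 h. Beside these, the median over 5170 TSSs that could be placed from the lists was 5, 11, 1 and 0. Of those TSSs, 28% had as many dnTCF1EWT peaks at 2 h, 83.9% at 9 h, and 0.193% as many dnTCF1Emut peaks at 2 h. CCND1 had 11 dnTCF1EWT peaks at 2 h and 14 at 9 h in its window, and 4.72% and 35.5% of the TSSs had as many. It had no dnTCF1Emut peak, where 70.2% of the TSSs had 1 or more at 2 h and 22.8% at 9 h. CDKN1A had 3 (80.1%) and 18 (18.7%), with 1 dnTCF1Emut peak each at 2 and 9 h. Neighboring TSSs share windows. The 5170 TSSs are only those nearest to listed peaks at 2 or more distances, so genes with 1 such peak or none are left out.

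**Figure D5:**
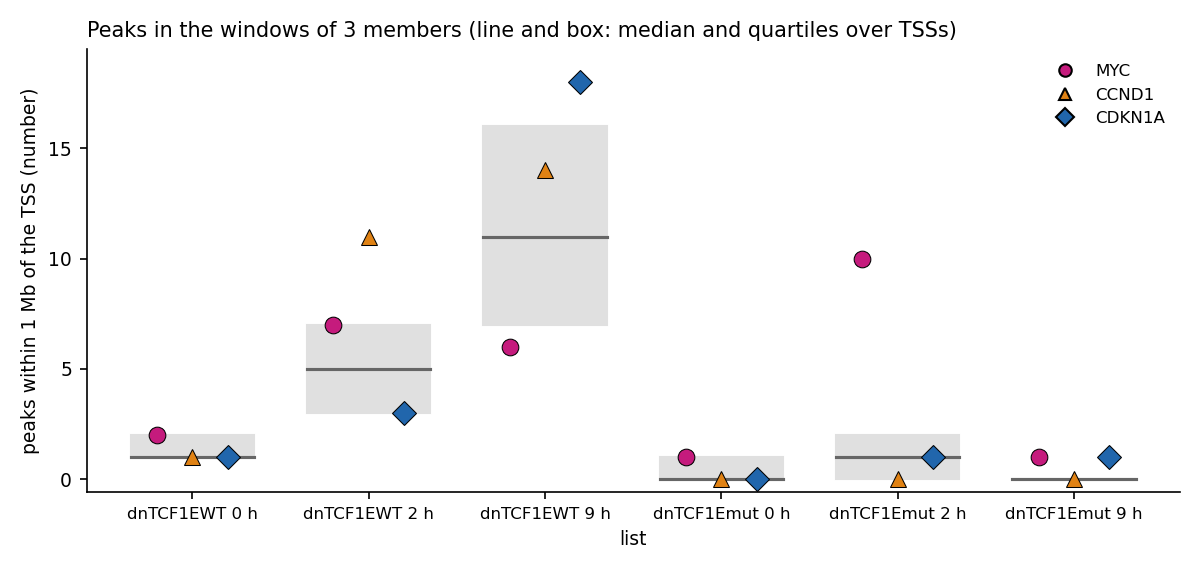
Number of peaks within 1 Mb of the MYC, CCND1 and CDKN1A TSSs in each list, with the gray line and box for the median and quartiles over 5170 TSSs. MYC stands at 10 with dnTCF1Emut at 2 h, above a box that ends at 2, while with dnTCF1EWT at 9 h it stands at 6, under a box that starts at 7.

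The same lists were read for the wider G1/S machinery (31 genes) and the MYC network (16 genes), members included. With dnTCF1EWT, 4 of the 47 genes had a peak at 0 h (6.76% of 20052 protein-coding genes did), 12 at 2 h (17.4%) and 24 at 9 h (33.6%). With dnTCF1Emut the counts were 0 at 0 h (2.42%), 4 at 2 h (5.87%) and 0 at 9 h (1.24%). With a score above 67, the counts were 5 for dnTCF1EWT at 2 h (6.12%), 6 at 9 h (9.23%) and 4 for dnTCF1Emut at 2 h (4.08%). For dnTCF1EWT, 7 of the 16 MYC network genes and 5 of the 31 G1/S genes had a peak at 2 h, and 9 and 15 at 9 h.

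Of the 4 MYC network genes with a dnTCF1EWT 2 h peak above that score, 3 had a peak at the same place with dnTCF1Emut, beside 9.44% of all peaks and 37.5% of the 1000 highest-ranked peaks of the dnTCF1EWT 2 h list. ZBTB17, which encodes MIZ1, a partner of MYC in repression, had a peak upstream (-9769 bp for dnTCF1EWT) with scores of 193.87 and 147.24 for dnTCF1EWT and dnTCF1Emut and no WRE. MYCN, the neuronal MYC paralog, had a peak upstream (-45802 bp) with scores of 80.79 and 96.72 and 1 WRE. MYC was the third. MAX, the partner of all MYC proteins, had a dnTCF1EWT peak in an AluJo repeat with a score of 71.9. Of the G1/S genes, CDK4, the kinase partner of cyclin D1, had a dnTCF1EWT peak 3570 bp downstream of its TSS (score 79.47, 1 short Helper site), and CDKN2B, which encodes the inhibitor p15, had a dnTCF1Emut peak at -88637 bp (score 126.55, no motif). No WRE was held by the CDK4, MAX, ZBTB17 or CDKN2B peaks.

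At 9 h of dnTCF1EWT the peaks of these genes lay mostly in repeats. Of 36 peaks, 33 were in Alu elements, and so were all 7 with a score above 67. These 7 belonged to CDC25A, a phosphatase that activates cyclin-dependent kinases (92.68 and 90.36), CCNE1, or cyclin E1 (89.89), E2F6, a repressive E2F (74.5), CCND3, or cyclin D3 (70), MLXIPL, a glucose-responsive factor of the extended MYC network (69.13), and MXD3, an antagonist of MYC (67.88). None of the 7 held a WRE. Over the 9 h list, 76% of all peaks and 56.9% of those with a score above 67 were in Alu elements.

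Genes with the profile most like that of MYC were looked for over the highest score per gene in the 6 lists, with an unlisted gene set at the list minimum, among 10698 genes. The 3 nearest to MYC were MYO3B (distance 0.26 on the log2 scale, with scores of 300.97, 54 and 72.73 for dnTCF1EWT at 2 and 9 h and dnTCF1Emut at 2 h), ZFP36L2 (0.29) and ASAP1 (0.37). The 3 nearest to POU5F1B were UBE2E2 (0.38), RORA (0.40) and ACTBL2 (0.46). The measure rests on 6 values per gene, which need not come from the same site. For MYC they joined the +7 kb region at 2 h with the AluSp peak 104616 bp upstream at 9 h, and its unlisted conditions stood at the list minimum. For POU5F1B they joined the -335 kb region, the -333 kb region (dnTCF1Emut at 9 h) and the peak of untreated dnTCF1EWT cells.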

How the data were processed

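ChIP-seq of FLAG-tagged dnTCF1EWT and dnTCF1Emut was read from 6 deposited lists of peaks, 1 for each protein at 0, 2 and 9 h of doxycycline. Per the submitters' processing notes, reads were processed with CASAVA 1.8.2, Bowtie2 2.0.0, MACS 1.3 and HOMER 3.16 on hg19. The authors pooled duplicates before calling peaks. The deposited peak score is the MACS score, which is not scaled for depth. The GC content was deposited as a fraction of the peak sequence and is given in percent. Motif matches per peak and the distance to the nearest TSS are the authors' HOMER values. Read depth is unknown from the lists, and the input libraries were not used.

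Peaks were ranked by score, with the best rank for ties, and overlap meant 1 base or more. TSS positions in hg19 were worked out from peak centers and the deposited distances. For CDKN1A, whose peaks point to 2 start sites, windows were centered on the downstream one. Every peak of MYC, CCND1 and CDKN1A was named, as were POU5F1B peaks in 2 or more lists or among the 3 highest of a list, and listed cell-cycle and MYC network genes with a score above 67 within 100 kb of the TSS. All 47 of these genes matched RefSeq by symbol or synonym, and peaks were joined to them by gene ID. Members and lists were chosen with earlier results of these data known. Promoter sequences came from RefSeq (GRCh38.p14), where of the members only CDKN1A was matched. Alternatives changed the score minimum, the rule for membership, the overlap, ties, chromosome Y and peaks of untreated cells. The overlap and TSS steps were tested on simulated data. Figures were drawn with matplotlib 3.10.9, and tables were handled with pandas 2.3.3 and NumPy 2.4.6 under Python 3.11.15. Binomial intervals, used as limits for a moved rank, came from SciPy 1.17.1.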

Additional observations from a re-analysis of the deposited data

Results flagged for a closer look

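At the POU5F1B region at -333 kb from the MYC TSS, the score was higher at 9 h than at 2 h with dnTCF1EWT and lower with dnTCF1Emut. The dnTCF1EWT 9 h peak and the dnTCF1Emut 2 h peak shared 218 bp. They counted as 1 region by an overlap of 1 base, but not when 50% of both peaks was required. With an unlisted peak set at the list minimum, the log2 ratio of the 9 h over the 2 h score was 0.66 for dnTCF1EWT, which is a lower bound because no peak was listed there at 2 h, and -1.52 for dnTCF1Emut. Most dnTCF1Emut scores were lower at 9 h, since 88.5% of the 234 shared peaks had a higher score at 2 h, with a median log2 ratio of the 2 h over the 9 h score of 1.06 (quartiles 0.47 and 1.66), and this region lay within those quartiles. Of all dnTCF1EWT 9 h peaks, 6.47% were overlapped by a dnTCF1EWT 2 h peak, as were 39% of the 1000 highest-ranked. A 9 h peak without a 2 h peak was therefore common in that list, in which this one ranked 1233 of 12996. Each log2 ratio of this region comes from 1 pair of pooled lists, and the difference between the cell lines was not tested.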

How the results depend on the processing

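Of 94 alternative values, 70 stayed within the limits set for a change, 21 moved and 3 turned direction. Member peaks with a score above 67 numbered 0, 2 and 2 for dnTCF1EWT at 0, 2 and 9 h and 0 for dnTCF1Emut at 9 h, and those of 100 or more numbered 0, 2 and 1 for dnTCF1EWT, 2 for dnTCF1Emut at 2 h and 0 at 9 h. With peaks taken within 100 kb of a member TSS, dnTCF1Emut at 2 h had 3. Of the dnTCF1Emut 2 h member peaks, 1 was overlapped by dnTCF1EWT 9 h when 50% of both peaks was required, and 0 by dnTCF1Emut 9 h with scores above 67 in both. Cell-cycle and MYC network genes with a score above 67 numbered 0, 5 and 6 for dnTCF1EWT at 0, 2 and 9 h. Counted as matches per kb of peak, short Helper sites in member peaks were below the list mean, by -2.31 for dnTCF1EWT at 2 h and -0.75 at 9 h, where the share of peaks with a site was above it. For the -335 kb region, dnTCF1EWT at 9 h was -0.012 percentage points from its 2 h place by rank percentile, although the score was lower. No paired analysis was possible because each condition is 1 pooled list. The lists hold no reads, so no depth correction was made.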
